A study of Rattus norvegicus with 23 samples.

Results

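Cytochrome P450 genes encode haem enzymes that insert an oxygen atom into fatty acids, sterols, retinoids and foreign compounds. Their transcripts were read here from heart and kidney samples of Sprague-Dawley rats, all aged 13 weeks and sampled 4 weeks after surgery. A gene was taken as a member when its symbol in the authors' deposited tables began with Cyp and a digit, leaving out Cyp24a1, Cyp27b1 and Cyp51, which act in vitamin D metabolism and cholesterol synthesis. This gave 33 of the 32552 genes counted, of which 15123 have a symbol. By family number there were 12 genes of family 2, 10 of family 4, 3 of family 26, 2 of family 1, and 1 each of families 7, 11, 20, 27, 39 and 46.

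The AVF+NX rats had lost 5 of 6 parts of their kidney tissue and had the jugular vein joined end to side to the carotid artery, an arteriovenous fistula. The NX rats had the same partial nephrectomy alone, and the Sham rats had sham surgery. Each group gave 4 libraries per organ, except the Sham hearts with 3, 23 in all. No group had a fistula without nephrectomy, and the labels tie no heart to a kidney of the same rat, nor name the region of the remnant kidney that was sampled. The replicates are labelled as biological, and the p-values measure the spread between them.

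Enzymes of this superfamily sit mostly in the endoplasmic reticulum, where NADPH-cytochrome P450 reductase feeds them electrons, while a few (Cyp11a1 and Cyp27a1 here) sit in mitochondria and draw on ferredoxin. In the rat kidney the Cyp4a enzymes turn arachidonic acid into 20-HETE and the Cyp2c23 enzyme turns it into epoxides, lipids known to act on vessels and on salt transport. Members of family 1 are known targets of the aryl hydrocarbon receptor, and several Cyp4a genes are known targets of the fatty acid receptor PPAR alpha.

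Total counts ran from 9605973 to 48079431 per heart library and from 9069354 to 18782085 per kidney library. Heart AVF+NX libraries held 11889483 to 48079431 counts, against 9605973 to 22679092 in NX hearts and 9894716 to 11866042 in Sham hearts, so depth moved with the operation in heart. The kidney maximum was NX library 4, and the other NX kidneys held 9360065 to 9458673 counts. Mitochondrial genes made up 4.15% of the counts of NX library 4, against 9.37% to 9.63% in those. It was the highest NX kidney for Cyp1a1, Cyp2d2 and Cyp4f6 (values below). The tissue labels were checked against defining markers. The 10 cardiomyocyte markers summed to between 73367 and 87554 CPM in hearts and to no more than 29.1 CPM in kidneys. The 14 proximal tubule markers summed to at least 13074 CPM in every kidney, and the heart sums were between 355 and 724 CPM, with Slc5a12 and Slc22a7 at 0 in every heart. In kidney, Sham library 1 was the lowest of its group in 17 of the 31 members tested, and so was NX library 1. CPM are the counts of a gene scaled to a common library total, with TMM factors set within each organ.

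Between genes, levels are given as CPM per kilobase of the gene model, averaged over the 12 kidney or 11 heart libraries. The kidney was led by Cyp2c23, an arachidonic acid epoxygenase, at 783 CPM per kilobase. The fatty acid omega-hydroxylases Cyp4a8, Cyp4a2 and Cyp4a3 followed at 412, 354 and 146 CPM per kilobase. Cyp2e1, which oxidises ethanol and ketone bodies, stood at 144 CPM per kilobase, and Cyp4f1, an omega-hydroxylase of arachidonic acid and leukotrienes, at 139. Cyp4b1, Cyp4a1, Cyp20a1 and Cyp2d2 completed the first 10 at 49.6, 43.9, 24.2 and 22.9 CPM per kilobase. Cyp2c23, Cyp2e1 and the 4 Cyp4a genes together made up between 78.6% and 86.3% of the summed P450 CPM of each kidney.

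The heart had another order. Cyp27a1, the mitochondrial sterol 27-hydroxylase, led at 20.8 CPM per kilobase, followed by Cyp4b1 at 15.6 and Cyp20a1, an enzyme of unknown substrate, at 12.9. Cyp4f6, Cyp4v3 and Cyp11a1 stood at 7.81, 6.19 and 3.31 CPM per kilobase. Cyp2u1, Cyp2e1, Cyp2d4 and Cyp2j4 completed the first 10 at 2.51, 2.31, 2.29 and 2.10 CPM per kilobase.

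Filtering on low counts left 31 members in kidney and 19 in heart, with 18 in both. In kidney Cyp11a1 and Cyp26c1 did not pass. Cyp11a1 reached at most 0.699 CPM there and Cyp26c1 at most 1.55 CPM. In heart the 14 that did not pass held at most 26 counts in any library and at most 0.833 CPM, and they included Cyp2c23, all 4 Cyp4a genes, Cyp2d2 and Cyp2f4. Cyp1a1 and Cyp4x1 had 0 counts in all 11 hearts. A count of 0 allows up to 3 counts, or 0.0632 to 0.312 CPM depending on the library, by counting error only.

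**Figure D1:**
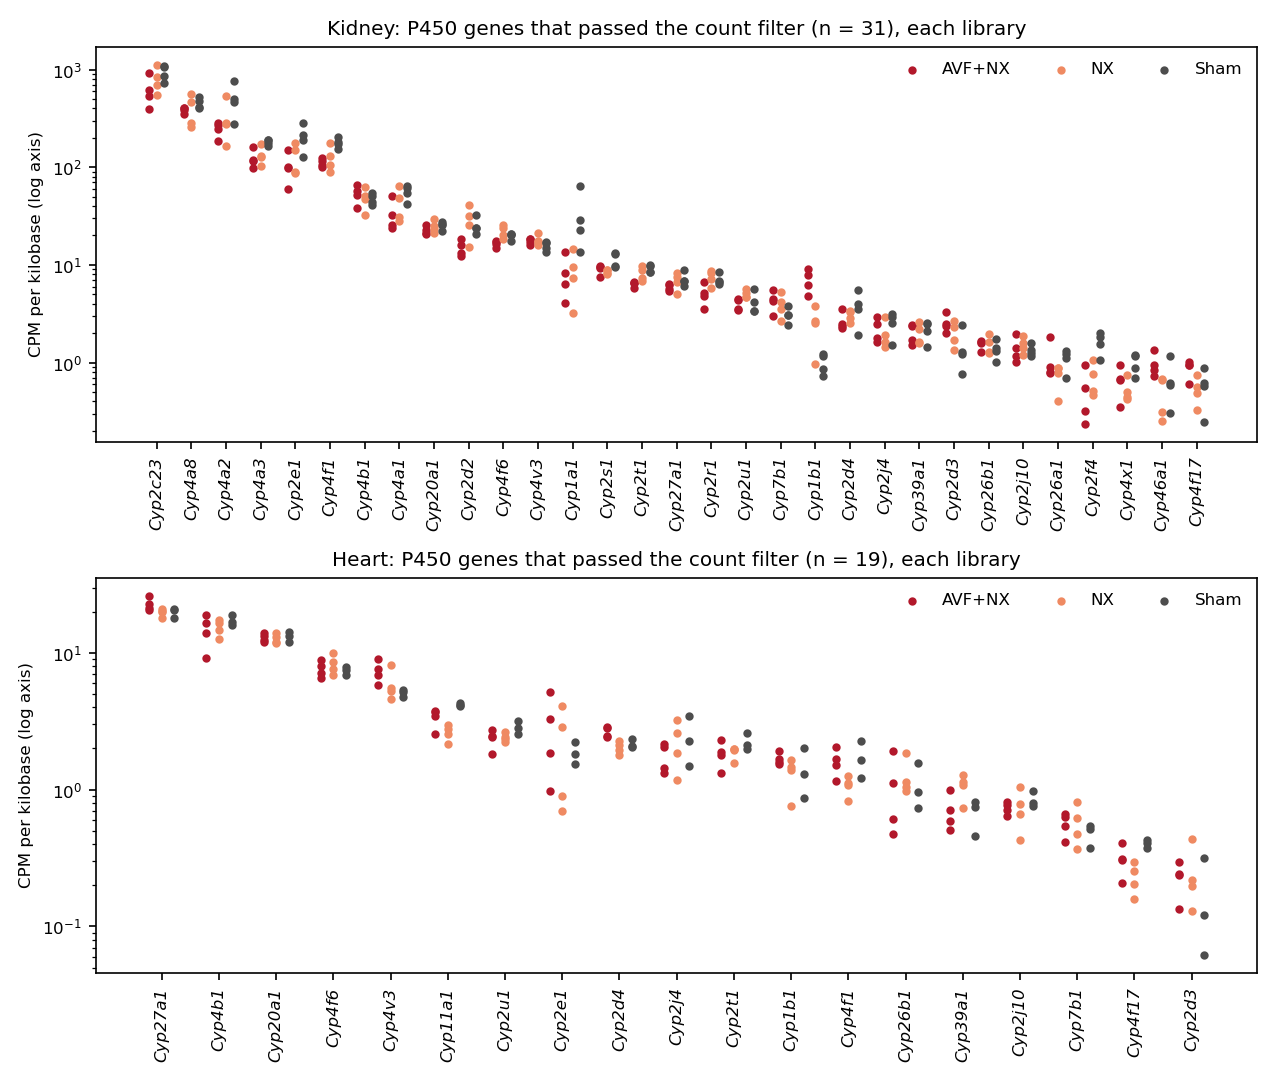
Level of each P450 gene that passed the count filter, in CPM per kilobase on a log axis, for each library of kidney (31 genes) and heart (19 genes). Each point is 1 library, coloured by operation. Cyp2c23 at 783 CPM per kilobase leads the kidney and Cyp27a1 at 20.8 CPM per kilobase leads the heart.

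The 300 bases around the start of Cyp1b1 and of the Cyp4a pair Cyp4a2 and Cyp4a3 are shown because Cyp1b1 was the member that rose in kidney and the other 2, near copies on chromosome 5, both fell there (values below). The sequences are from RefSeq on the rat build GRCr8, run 5′ to 3′ on the gene's strand, and cover 250 bases before and 50 after the start. They lie at chr6:21094315-21094614 (plus strand), chr5:134170859-134171158 (minus strand) and chr5:134352187-134352486 (minus strand). Capitals mark GCGTG or its reverse complement CACGC, the core of the aryl hydrocarbon receptor element, in Cyp1b1, and AGGTCA, a half-site of nuclear receptors such as PPAR alpha, in the Cyp4a genes.
Cyp1b1: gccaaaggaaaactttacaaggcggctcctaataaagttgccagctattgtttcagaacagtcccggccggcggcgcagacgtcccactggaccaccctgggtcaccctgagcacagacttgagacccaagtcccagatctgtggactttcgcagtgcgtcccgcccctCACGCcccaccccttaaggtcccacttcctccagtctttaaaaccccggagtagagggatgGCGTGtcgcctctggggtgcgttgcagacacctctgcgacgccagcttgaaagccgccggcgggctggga
Cyp4a2: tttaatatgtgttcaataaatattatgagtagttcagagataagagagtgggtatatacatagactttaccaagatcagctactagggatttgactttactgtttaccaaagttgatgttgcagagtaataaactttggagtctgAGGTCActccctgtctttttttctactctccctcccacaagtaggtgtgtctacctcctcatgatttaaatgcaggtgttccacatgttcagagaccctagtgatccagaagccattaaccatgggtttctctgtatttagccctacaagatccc
Cyp4a3: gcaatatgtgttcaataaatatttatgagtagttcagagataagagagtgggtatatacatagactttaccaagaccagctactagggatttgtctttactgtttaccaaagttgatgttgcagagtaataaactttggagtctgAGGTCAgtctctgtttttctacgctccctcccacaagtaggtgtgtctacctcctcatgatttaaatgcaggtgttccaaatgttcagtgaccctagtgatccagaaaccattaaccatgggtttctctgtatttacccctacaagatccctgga
The Cyp4a2 and Cyp4a3 windows were identical at 284 of 295 aligned bases (96.3%), and in both AGGTCA began at position -105 from the start. Matched by symbol, 28 of the 33 members had a promoter in the table, and Cyp1a1, which fell in kidney, had none. GCGTG on either strand was found in 12 of these 28, against 29.7% of all 33469 promoters. AGGTCA or its reverse complement TGACCT was found in 9 of the 28, against 16.2% of all promoters. The Cyp1b1 window held GCGTG or its complement 2 times and AGGTCA 0 times. Each Cyp4a window held AGGTCA 1 time and GCGTG 0 times. This split holds for the windows shown, which were picked by their direction in kidney. GCGTG was also found in Cyp2t1 and Cyp4f1, which fell there, and Cyp2r1, Cyp2u1 and Cyp39a1 held both motifs. A match describes these letters only.

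The comparison of AVF+NX with Sham kidneys concerns the 2 operations together. Of the 31 members tested, 1 rose and 8 fell at an adjusted p below 0.05 (edgeR quasi-likelihood test with Benjamini-Hochberg adjustment over 14322 genes). The member that rose was Cyp1b1, and those that fell were Cyp1a1, Cyp2d2, Cyp2e1, Cyp2f4, Cyp2t1, Cyp4a2, Cyp4a3 and Cyp4f1. The 9 calls made up 29.0% of the members tested, beside 25.1% of all genes tested. By direction, 15.9% of all genes tested were called higher and 9.18% lower. The median log2 fold change was -0.27 over the members and -0.01 over all genes tested, and 21 of the 31 members had a negative value. Leaving out AVF+NX library 1 or 2 or Sham library 3 left 4 members called (Cyp1b1, Cyp2f4, Cyp2t1 and Cyp4f1), and leaving out AVF+NX library 4 or Sham library 2 left 5, with Cyp1a1 added. The authors' deposited table called 13 members here, 2 higher and 11 lower, beside 4403 of the 14175 genes it lists. It called these 9, and also Cyp2d3 higher and Cyp2c23, Cyp4a1 and Cyp4f6 lower. In bulk tissue, fewer cells of a type and less RNA per cell cannot be told apart.

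In family 1 the 2 genes moved in opposite directions. Cyp1b1, which acts on steroids and foreign compounds, measured 50.5, 34.4, 26.5 and 42.9 CPM in AVF+NX kidneys, against 6.79, 4.77, 4.02 and 6.47 CPM in Sham kidneys. Every AVF+NX kidney was above every Sham kidney. Cyp1b1 was 7.03-fold higher (log2 fold change 2.81, SE 0.35, adjusted p = 0.000197), and the call was kept when each of the 12 libraries was left out. Cyp1a1, an enzyme known for its induction by aryl hydrocarbons, measured 16.9, 10.7, 35.9 and 21.9 CPM in AVF+NX kidneys, against 35.4, 60.5, 170.0 and 76.7 CPM in Sham kidneys. The groups overlapped only at AVF+NX library 3 and Sham library 1, and Sham library 3 stood far above the rest. Cyp1a1 was 4.02-fold lower (log2 fold change -2.01, SE 0.54, adjusted p = 0.0201). Without Sham library 3 the log2 fold change was -1.44 with an adjusted p of 0.0661, and the call was also lost without AVF+NX library 1 (0.0692) or 2 (0.0528) and with no count filter (0.0545).

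In family 2, 4 of 12 members fell and none was called higher, with a median log2 fold change of -0.49. Over all genes tested 9.18% were called lower and 15.9% higher. Cyp2f4, known in rat as a lung enzyme that oxidises naphthalene, measured 0.449, 1.03, 1.82 and 0.611 CPM in AVF+NX kidneys, against 2.00, 3.45, 3.84 and 2.97 CPM in Sham kidneys. The groups did not overlap, at a low level. Cyp2f4 was 3.15-fold lower (log2 fold change -1.66, SE 0.41, adjusted p = 0.0112). Cyp2t1 measured 12.2, 11.0, 12.3 and 12.6 CPM in AVF+NX kidneys, against 15.8, 18.7, 15.9 and 18.3 CPM in Sham kidneys. The groups were again apart and the spread within each was small, and Cyp2t1 was 1.43-fold lower (log2 fold change -0.51, SE 0.13, adjusted p = 0.0109). In the files' coordinates, whose build the sources used here do not give, Cyp2f4 (1:83933942-83947821) and Cyp2t1 (1:83965608-83969559) lie close together on chromosome 1. Cyp2t1 overlaps Egln2 on the other strand, and since the strand setting of the counting is not given either, its value is uncertain. The calls of both were kept without each of the 12 libraries.

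Cyp2e1 measured 232, 230.4, 354 and 141 CPM in AVF+NX kidneys, against 298, 493, 666 and 437 CPM in Sham kidneys. The AVF+NX kidneys were lower on average, and library 3 of that group lay above Sham library 1. Cyp2e1 was 1.98-fold lower (log2 fold change -0.99, SE 0.32, adjusted p = 0.0406). Cyp2d2, a drug-oxidising enzyme of the debrisoquine type in rat, measured 22.3, 26.6, 30.8 and 20.8 CPM in AVF+NX kidneys, against 35.0, 39.9, 53.8 and 39.8 CPM in Sham kidneys. All 4 AVF+NX kidneys were below the lowest Sham kidney, and the log2 fold change was -0.75 (SE 0.25, adjusted p = 0.0483). Of the 12 leave-one-out fits, 6 lost the Cyp2e1 call, those lacking any of AVF+NX libraries 1, 2 and 4 and Sham libraries 2, 3 and 4 (adjusted p from 0.0679 to 0.119). For Cyp2d2 the call held in 3 of them, those lacking AVF+NX library 3, NX library 1 or NX library 4, and adjusted p was between 0.0502 and 0.134 in the other 9. Both calls were also lost with no count filter and with the small RNA index or the total count as a covariate (adjusted p 0.0507 to 0.0869 for Cyp2e1 and 0.0662 to 0.191 for Cyp2d2). Reads of Cyp2d2 and its near copies Cyp2d3 and Cyp2d4 may have been split in counting.

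Cyp2c23 was the most abundant P450 of the kidney, and it was not called. It measured 1019.7, 1185, 1769 and 765 CPM in AVF+NX kidneys, against 1413, 1661, 2022 and 2086 CPM in Sham kidneys. Only AVF+NX library 3 lay within the Sham range. The log2 fold change was -0.60 (SE 0.26, adjusted p = 0.109), and the authors' deposited table called it lower.

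In family 4, 3 of 10 members fell and none was called higher, with a median log2 fold change of -0.42. These counts stand beside 9.18% of all genes tested called lower and 15.9% higher. Cyp4a2 measured 531, 625, 583 and 401 CPM in AVF+NX kidneys, against 602, 1011, 1664 and 1089 CPM in Sham kidneys. The highest AVF+NX kidney passed the lowest Sham kidney, and the Sham kidneys were widely spread. Cyp4a2 was 2.04-fold lower (log2 fold change -1.03, SE 0.35, adjusted p = 0.0475). Cyp4a3, its near copy, measured 164, 196, 267 and 192 CPM in AVF+NX kidneys, against 276, 293, 316 and 319 CPM in Sham kidneys. Its groups were apart, and it was 1.47-fold lower (log2 fold change -0.56, SE 0.16, adjusted p = 0.0248). The 2 genes are known as near-identical copies, so reads may be divided between them. The same 6 libraries as for Cyp2e1, left out singly, each ended the Cyp4a3 call (adjusted p 0.0507 to 0.0772). That of Cyp4a2 held in 3 of the 12 fits, those lacking NX library 1, NX library 3 or Sham library 1 (adjusted p 0.0564 to 0.145 in the other 9). It was also lost with no count filter and with either covariate (0.0779 to 0.153), and that of Cyp4a3 with the small RNA index (0.0504).

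Cyp4f1 measured 225, 259, 275 and 234 CPM in AVF+NX kidneys, against 346, 458, 387 and 402 CPM in Sham kidneys. No library of one group entered the range of the other. Cyp4f1 was 1.61-fold lower (log2 fold change -0.68, SE 0.17, adjusted p = 0.0127), and all 12 leave-one-out fits kept the call, while the small RNA index as a covariate gave an adjusted p of 0.0503. The remaining Cyp4a genes were not called. Cyp4a1 averaged 69.5 ± 25.9 CPM in AVF+NX kidneys and 117 ± 20.7 CPM in Sham kidneys (SD, n = 4 each), with a log2 fold change of -0.75 and an adjusted p of 0.0768. Cyp4a8 averaged 953 ± 65.5 CPM in AVF+NX kidneys and 1128 ± 148 CPM in Sham kidneys, with a log2 fold change of -0.24 and an interval of 2 SE to each side of -0.68 to 0.19. The 4 Cyp4a genes together summed to 1762 ± 131 CPM in AVF+NX kidneys and 2637 ± 496 CPM in Sham kidneys.

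The 7 tested members of the other families were those of retinoic acid breakdown (Cyp26a1, Cyp26b1), of sterol and oxysterol oxidation (Cyp7b1, Cyp27a1, Cyp39a1, Cyp46a1) and Cyp20a1, and none was called. Across all 22 members not called, log2 fold changes ran from -0.75 to 0.83, the highest being Cyp2d3 (0.83, SE 0.31, adjusted p = 0.0702). All P450 genes together summed to 3889 ± 670 CPM in AVF+NX kidneys and 5816 ± 998 CPM in Sham kidneys (SD, n = 4 each), with ranges of 3257 to 4819 and 4481 to 6803 CPM. Without overlap between the groups were 1 member higher, beside 16.4% of all genes tested, and 6 lower, beside 11.2%.

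Markers of cell types moved with these results. Of the 14 proximal tubule markers, 7 fell and none was called higher, and their summed level was 13074 to 20098 CPM in AVF+NX kidneys, against 22234 to 27093 CPM in Sham kidneys. All 7 measured immune markers rose, with sums of 2200 to 4324 CPM in AVF+NX kidneys and 1135 to 1356 CPM in Sham kidneys. Of the 6 fibroblast markers 5 rose, with sums of 2915 to 6590 CPM in AVF+NX kidneys and 483 to 740 CPM in Sham kidneys. Of 9 markers of other kidney segments 4 fell, with sums of 4375 to 6904 CPM in AVF+NX kidneys and 6803 to 7878 CPM in Sham kidneys. Of 6 endothelial markers 2 fell and 1 rose, with sums of 472 to 587 CPM in AVF+NX kidneys and 579 to 626 CPM in Sham kidneys. Of 5 adipocyte markers 3 rose, with sums of 82.6 to 115 CPM in AVF+NX kidneys and 15.7 to 44.7 CPM in Sham kidneys. No marker of these 6 lists was at 0 in every kidney of a group. Their part in the P450 results was not tested.

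**Figure D2:**
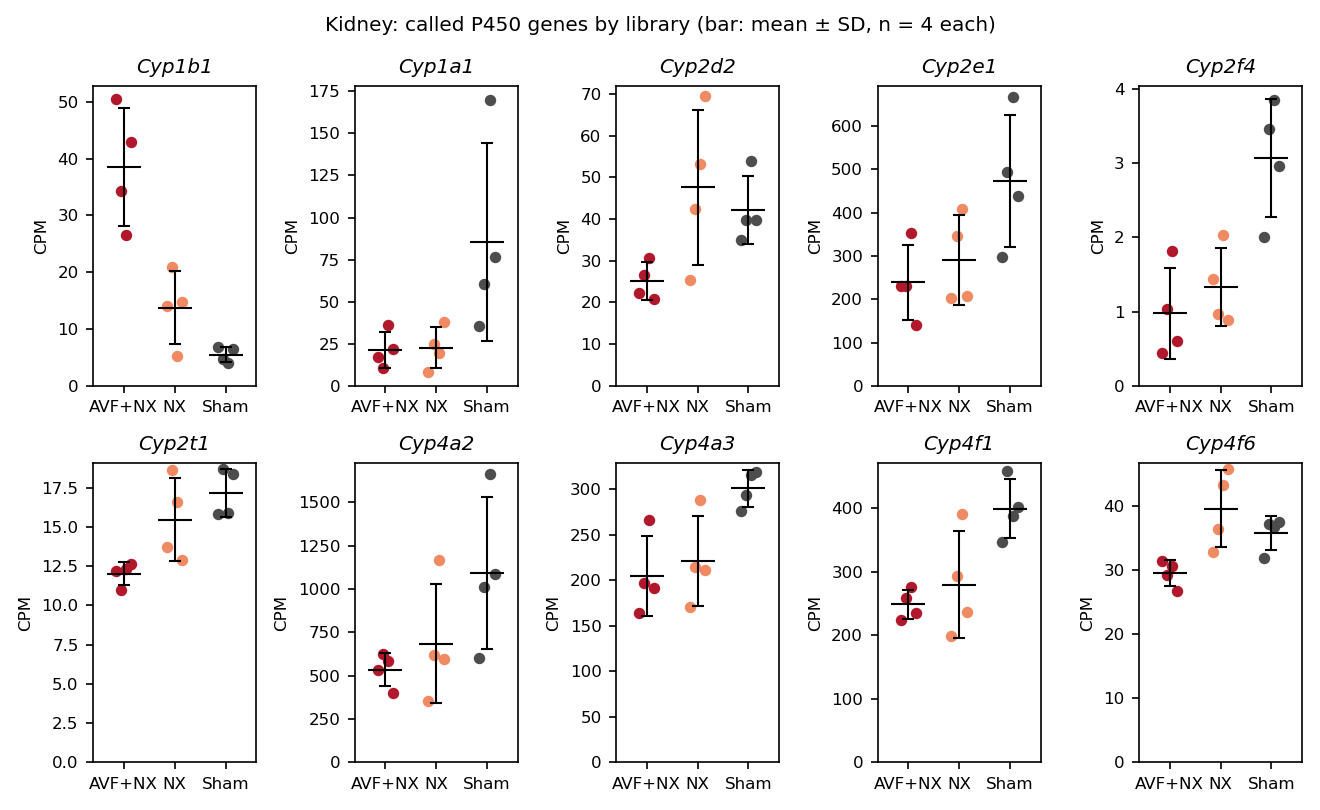
CPM of the 10 P450 genes called in at least 1 kidney comparison, for each library (points) with the mean and SD (bars, n = 4 each) in AVF+NX, NX and Sham kidneys. Axes start at 0. Cyp1b1 lies between 26.5 and 50.5 CPM in AVF+NX kidneys, and at no more than 6.79 CPM in Sham kidneys.

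Comparing AVF+NX with NX kidneys asks what the fistula added to nephrectomy. It shares its AVF+NX libraries with the comparison above, and the next one shares its Sham and NX libraries with both. Here 1 member rose and 1 fell, 2 of 31, beside 6.07% of all genes tested. By direction, 4.87% of all genes were called higher and 1.2% lower. The median log2 fold change was -0.12 over the members and -0.01 over all genes tested. Without overlap between the groups were 2 members higher (Cyp1b1 and Cyp46a1, beside 7.49% of all genes) and 3 lower (Cyp2t1, Cyp2u1 and Cyp4f6, beside 4.31%).

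Cyp1b1 measured 14.1, 21.0, 5.31 and 14.7 CPM in NX kidneys, and every AVF+NX kidney was above all of them, at 26.5 CPM or more. It was 2.79-fold higher in AVF+NX (log2 fold change 1.48, SE 0.32, adjusted p = 0.0208). Cyp4f6, an omega-hydroxylase of fatty acids and leukotrienes, measured 31.4, 29.2, 30.7 and 26.8 CPM in AVF+NX kidneys, against 32.8, 36.3, 43.3 and 45.8 CPM in NX kidneys. The groups did not overlap, though the gap was narrow, and the log2 fold change was -0.43 (SE 0.11, adjusted p = 0.0390). The Cyp1b1 call was lost without AVF+NX library 1 (adjusted p = 0.0689) or 4 (0.0523). It was also lost in a fit of only these 2 groups (0.0721) and once the small RNA index entered the fit (0.140). The Cyp4f6 call was lost in 8 of 12 leave-one-out fits (adjusted p 0.0545 to 0.106). These lacked Sham library 2, 3 or 4, NX library 3 or 4, or AVF+NX library 1, 2 or 4. The fit of only 2 groups (0.101) and the fit holding the small RNA index (0.292) ended the Cyp4f6 call too. The count of 2 members called became 0 without AVF+NX library 1 or 4, 1 without each of the other libraries that ended the Cyp4f6 call, and 4 without AVF+NX library 3.

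Cyp2d2 and Cyp2r1 did not pass the edgeR threshold. Cyp2d2 had 25.4, 42.4, 53.1 and 69.4 CPM in NX kidneys, and only NX library 1 lay within the AVF+NX range given above. Its log2 value was -0.93 (SE 0.25, adjusted p = 0.0505). Without NX library 1 its adjusted p was 0.0185, and without AVF+NX library 3 it was 0.0419. DESeq2 called it lower (adjusted p = 0.00730), and so did the authors' deposited table (adjusted p = 0.0179). Across all edgeR and DESeq2 fits run, the adjusted p of Cyp2d2 ran from 0.00730 to 0.386. Cyp2r1, a vitamin D 25-hydroxylase, averaged 8.53 ± 2.17 CPM in AVF+NX kidneys and 12.6 ± 2.23 CPM in NX kidneys (SD, n = 4 each). Its log2 difference was -0.56 (SE 0.19, adjusted p = 0.0955), and -0.71 (adjusted p = 0.0304) without AVF+NX library 3. No other alternative called Cyp2r1, and its adjusted p reached 0.288. Between these groups 6 of 7 immune and 2 of 6 fibroblast markers rose in AVF+NX, with median log2 fold changes of 1.32 and 1.48. Immune marker sums were 2200 to 4324 CPM in AVF+NX kidneys and 1009 to 1788 CPM in NX kidneys, and fibroblast sums were 2915 to 6590 CPM in AVF+NX kidneys and 895 to 3090 CPM in NX kidneys. Of 9 markers of other kidney segments 1 fell. None of 14 proximal tubule markers was called, and their sums were 13074 to 20098 CPM in AVF+NX kidneys and 15316 to 23364 CPM in NX kidneys. Their part in these values was not tested.

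The third kidney comparison, NX against Sham, concerns nephrectomy alone. None of the 31 members was called, beside 1.31% of all genes tested (0.859% higher and 0.447% lower). At an unadjusted p below 0.05 there were 8 of 31 members, beside 17.4% of all genes tested. DESeq2 called 3 (Cyp1a1, Cyp1b1 and Cyp2s1), and the authors' deposited table called 4, which were Cyp1b1 higher and Cyp1a1, Cyp2f4 and Cyp2s1 lower. These are also the 4 with the smallest p here.

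The Cyp1b1 values of NX kidneys were given above, and library 3 lay among the Sham kidneys while the other 3 lay above them all. For Cyp1b1 the log2 fold change was 1.33 (SE 0.35, adjusted p = 0.0809), and without NX library 3 it was 1.59 with an adjusted p of 0.00788. Library 3 had the lowest immune and fibroblast sums of the NX kidneys (1009 and 895 CPM) and the highest proximal tubule sum (23364 CPM). The part of these sums in its Cyp1b1 value was not tested. Without library 3, Cyp4a3 and Cyp4f1 also fell, which made 3 members called. Cyp1a1 measured 8.45, 25.1, 19.4 and 38.2 CPM in NX kidneys, where library 4 reached the Sham range, with a log2 difference of -1.89 (SE 0.54, adjusted p = 0.107).

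Cyp2f4 measured 1.44, 0.968, 2.03 and 0.890 CPM in NX kidneys, and library 3 passed the lowest Sham kidney. Its log2 difference was -1.24 (SE 0.40, adjusted p = 0.133). Cyp2s1, known to act on oxidised lipids and retinoids, measured 23.1, 21.7, 21.2 and 23.2 CPM in NX kidneys, against 25.03, 25.7, 33.6 and 34.7 CPM in Sham kidneys. All NX kidneys were below all Sham kidneys, as in 4.1% of all genes tested, while 0 members were higher without overlap, beside 5.28%. The Cyp2s1 log2 fold change was -0.42 (SE 0.12, adjusted p = 0.109). The median log2 fold change over the members was -0.16, with 20 of 31 negative, and that over all genes was 0.02. The sum over all P450 genes was 4547 ± 1340 CPM in NX kidneys and 5816 ± 998 CPM in Sham kidneys, with overlapping ranges.

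**Figure D3:**
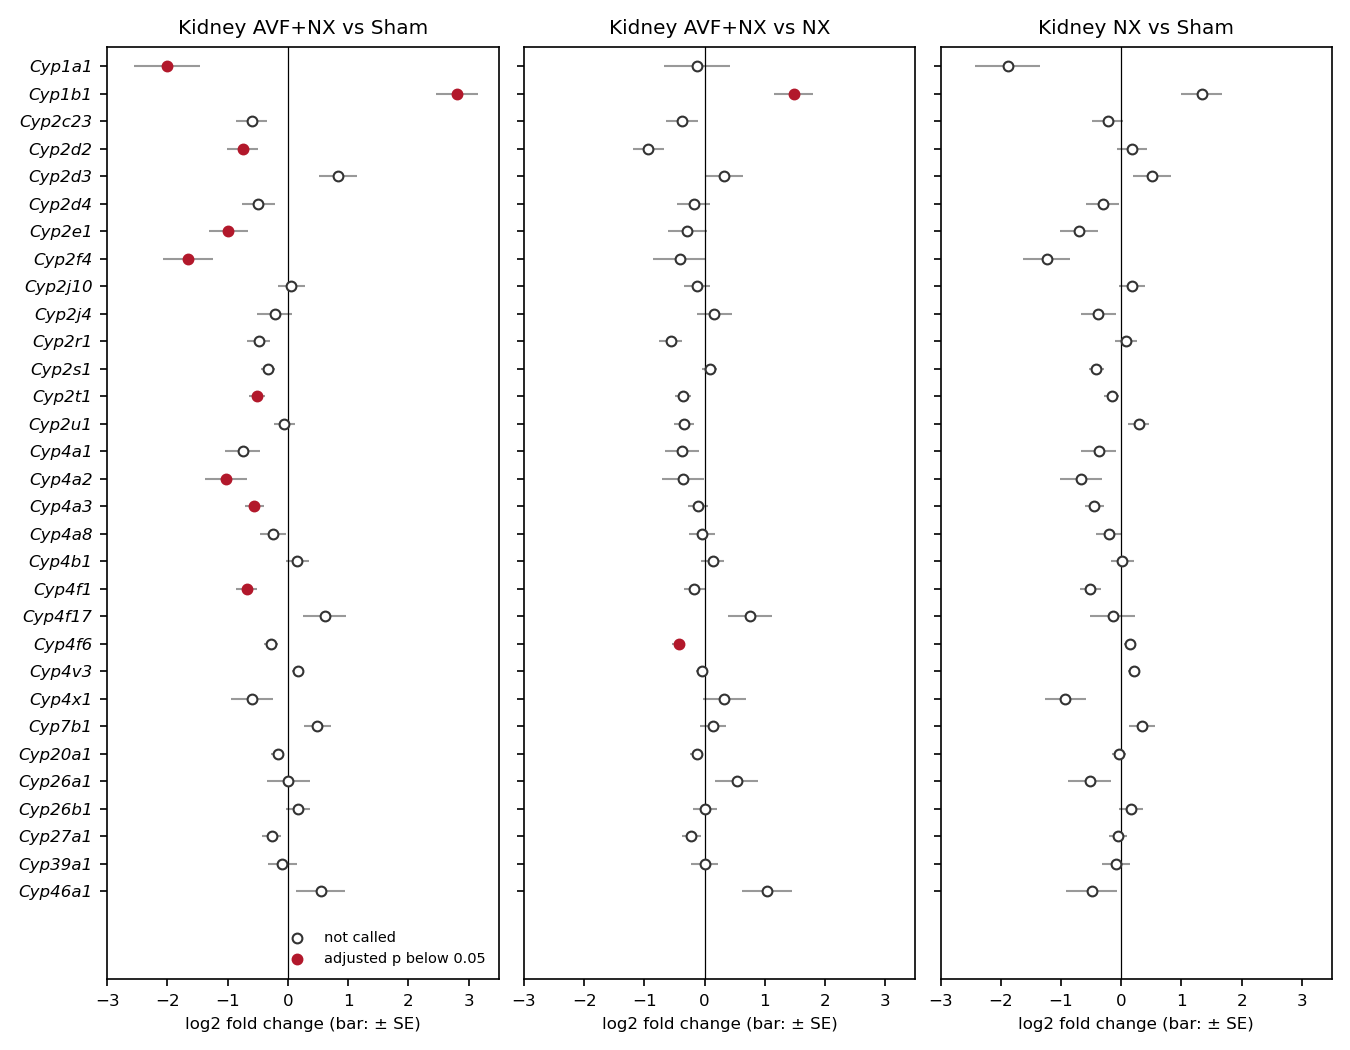
Log2 fold changes (± SE, horizontal axis) of the 31 P450 genes tested in kidney, ordered by family, for AVF+NX vs Sham, AVF+NX vs NX and NX vs Sham. Filled points passed an adjusted p below 0.05. In the left panel 9 genes are filled, and Cyp1b1 at 2.81 is the only filled point right of 0.

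Genes that serve the P450 enzymes were read in kidney from lists of their partners, regulators and neighbouring pathways. In AVF+NX against Sham kidneys 15.9% of all genes tested were called higher and 9.18% lower, and the list counts stand beside these shares. Of 10 measured electron donors, Por, the reductase of the endoplasmic reticulum, fell in AVF+NX against Sham kidneys and no other was called. Por averaged 163 ± 23.7 CPM in AVF+NX kidneys and 217 ± 22.8 CPM in Sham kidneys (SD, n = 4 each, log2 fold change -0.41, adjusted p = 0.0279). Of 13 genes of haem synthesis and breakdown, 1 rose and 3 fell. Hmox1, which breaks down haem, averaged 33.8 ± 7.24 CPM in AVF+NX kidneys and 6.97 ± 1.38 CPM in Sham kidneys (log2 fold change 2.28, adjusted p = 0.000141). Alad and Uros, which act in haem synthesis, and Blvra, which reduces biliverdin, had log2 fold changes of -0.68, -0.56 and -0.67.

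Of the 21 tested regulators of P450 genes reported here, 5 fell and 2 rose in AVF+NX against Sham kidneys. Over all genes tested 9.18% fell and 15.9% rose. Ppara, the PPAR alpha gene, averaged 30.4 ± 4.77 CPM in AVF+NX kidneys and 50.4 ± 13.5 CPM in Sham kidneys (log2 fold change -0.74, adjusted p = 0.0106). Hnf4a, a regulator of proximal tubule and liver genes, averaged 713 ± 148 CPM in AVF+NX kidneys and 1172 ± 87.9 CPM in Sham kidneys (log2 fold change -0.72, adjusted p = 0.00731). The pregnane receptor Nr1i2, the bile acid receptor Nr1h4 and Hlf also fell, and Cebpb (log2 fold change 1.31) and Pparg rose. Ahr, the aryl hydrocarbon receptor, was not called, at 70.0 ± 8.94 CPM in AVF+NX kidneys and 78.7 ± 4.82 CPM in Sham kidneys (log2 fold change -0.17, adjusted p = 0.261). Of the 11 PPAR alpha targets outside the P450 family reported here, 1 fell (Vnn1) and 2 rose (Angptl4 and Plin2), with a median log2 fold change of -0.20.

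The 4 flavin monooxygenases reported here, which like P450 enzymes oxidise foreign compounds, all fell (Fmo1, Fmo2, Fmo4 and Fmo5, median log2 fold change -0.71). Fmo1 averaged 257 ± 59.8 CPM in AVF+NX kidneys and 432 ± 61.4 CPM in Sham kidneys (log2 fold change -0.75, adjusted p = 0.0123). Of 17 genes of arachidonic acid metabolism outside the P450 family, 4 rose, beside 15.9% of all genes tested, and none was called lower. These were the phospholipase Pla2g2a, the thromboxane synthase Tbxas1, the lipoxygenase Alox5 and its partner Alox5ap, with log2 fold changes of 2.95, 1.59, 1.39 and 1.13. Of 13 retinoid genes 3 rose (Lrat, Crabp2, Rarres2) and 1 fell (Stra6), and of 18 conjugating enzymes 2 rose (Nqo1, Gstm1) and 2 fell (Gstk1, Tpmt). Median log2 fold changes were -0.22 for electron donors, -0.22 for haem genes, -0.17 for regulators and 0.28 for arachidonic acid genes. In NX against Sham kidneys, Hmox1 rose (log2 fold change 1.61, adjusted p = 0.0226) and Hlf fell (-1.20, adjusted p = 0.0345), the only calls on these lists. That stands beside 1.31% of all genes tested. In AVF+NX against NX kidneys no gene of these lists was called, beside 6.07% of all genes tested.

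In the heart, AVF+NX was compared with Sham in the same way. Of 19 members tested, 1 rose and none was called lower, beside 34.1% of all genes tested (15.4% higher and 18.6% lower). The median log2 fold change was -0.04 over the members and 0.01 over all genes tested. The member called was Cyp4v3, a fatty acid omega-hydroxylase. It measured 27.9, 25.3, 21.5 and 33.2 CPM in AVF+NX hearts, against 17.4, 19.6 and 19.2 CPM in Sham hearts. All AVF+NX hearts were above all Sham hearts, as were 22.8% of all genes tested, and Cyp4v3 was 1.43-fold higher (log2 fold change 0.52, SE 0.18, adjusted p = 0.0432).

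Of 11 leave-one-out fits 6 ended the Cyp4v3 call, those lacking AVF+NX library 1, 2 or 4 or any of the 3 Sham hearts (adjusted p 0.0650 to 0.138), which left 0 members called. It was also lost with the total count or an index of small structured RNA genes as a covariate (adjusted p up to 0.147). That index was below 0 in all 4 AVF+NX hearts (-0.89 to -0.28) and above 0 in all 3 Sham hearts (0.79 to 0.84), so it moved with the operation. The same hearts differed in markers too, with 4 of 6 endothelial and 5 of 6 fibroblast markers higher in AVF+NX. Of 7 immune markers 2 were higher, and of 10 cardiomyocyte markers 2 were higher and 2 lower. Over all genes tested 15.4% were called higher and 18.6% lower. Endothelial sums were 801 to 999 CPM in AVF+NX hearts and 583 to 715 CPM in Sham hearts, and fibroblast sums were 2310 to 3640 CPM in AVF+NX hearts and 1447 to 1937 CPM in Sham hearts. Their part in the Cyp4v3 value was not tested.

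Among the 18 heart members not called, the smallest p belonged to Cyp11a1, Cyp27a1 and Cyp2u1. Cyp27a1 measured 48.7, 46.8, 51.7 and 59.3 CPM in AVF+NX hearts, against 40.8, 46.8 and 48.0 CPM in Sham hearts. The groups overlapped in part, and the log2 fold change was 0.19 (SE 0.10, adjusted p = 0.163). Cyp2u1, another omega-hydroxylase, averaged 6.10 ± 0.972 CPM in AVF+NX hearts (n = 4) and 7.38 ± 0.807 CPM in Sham hearts (n = 3, SD), with a log2 fold change of -0.28 and an adjusted p of 0.186. Cyp2e1 ranged between 2.29 and 12.1 CPM in AVF+NX hearts and between 3.59 and 5.18 CPM in Sham hearts.

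Cyp11a1, the mitochondrial enzyme that starts steroid synthesis from cholesterol, measured 7.40, 6.80, 7.29 and 5.08 CPM in AVF+NX hearts and 5.52, 5.10, 4.28 and 5.87 CPM in NX hearts. The Sham hearts had 8.31, 8.07 and 8.60 CPM. All 8 operated hearts lay below the 3 Sham hearts, which is one of the 24.6% of all genes tested that were lower without overlap in AVF+NX against Sham and of the 8.94% in NX against Sham. Cyp4f17 was the other member lower without overlap in NX hearts, and 0 members were higher, beside 6.92% of all genes. The Cyp11a1 log2 fold change was -0.31 (SE 0.16, adjusted p = 0.142) in AVF+NX and -0.69 (SE 0.16, adjusted p = 0.141) in NX. Each is set against the same Sham hearts. DESeq2 called it in NX against Sham (adjusted p = 0.0217), where it called 344 genes in all. The edgeR fit without NX library 1 called it too (0.0447). No other alternative called Cyp11a1 there, and its adjusted p reached 0.413. The 4 measured adrenal cortex markers summed to between 8.91 and 10.1 CPM in AVF+NX hearts, between 6.18 and 11.1 CPM in NX hearts and between 9.01 and 9.86 CPM in Sham hearts, with none at 0, and their part in the Cyp11a1 values was not tested.

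In NX against Sham hearts none of the 19 members was called, beside 0% of all genes tested. There were 3 members at an unadjusted p below 0.05, beside 20.8% of all genes tested, DESeq2 called 1 (Cyp11a1), and the authors' deposited table called 0. After Cyp11a1 the smallest p belonged to Cyp4f1, Cyp4f17 and Cyp39a1. Cyp4f1 measured 2.4996, 2.42, 2.80 and 1.83 CPM in NX hearts, against 3.67, 2.69 and 5.05 CPM in Sham hearts, a log2 difference of -0.66 (SE 0.27, adjusted p = 0.199). Only NX library 3 reached the Sham range. Cyp4f17 averaged 0.695 ± 0.184 CPM in NX hearts and 1.23 ± 0.083 CPM in Sham hearts (SD, log2 fold change -0.76, adjusted p = 0.234). Cyp39a1, an oxysterol 7-alpha-hydroxylase, measured 3.44, 2.33, 4.12 and 3.66 CPM in NX hearts, against 1.47, 2.59 and 2.39 CPM in Sham hearts, a log2 difference of 0.65 (SE 0.31, adjusted p = 0.247).

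In AVF+NX against NX hearts none of the 19 members was called, beside 0.336% of all genes tested. An unadjusted p below 0.05 was reached by 4 members, beside 21.5% of all genes tested, while DESeq2 and the authors' deposited table each called 0. These 4 were Cyp11a1 (log2 fold change 0.38, adjusted p = 0.167), Cyp2d4 (0.37, adjusted p = 0.183), Cyp4f1 (0.58, adjusted p = 0.184) and Cyp39a1 (-0.58, adjusted p = 0.224). Cyp2d4 measured 4.23, 4.93, 4.37 and 5.08 CPM in AVF+NX hearts, against 3.75, 3.41, 4.01 and 3.17 CPM in NX hearts. It was the only member without overlap between these groups, as were 4.96% of all genes in the higher direction.

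**Figure D4:**
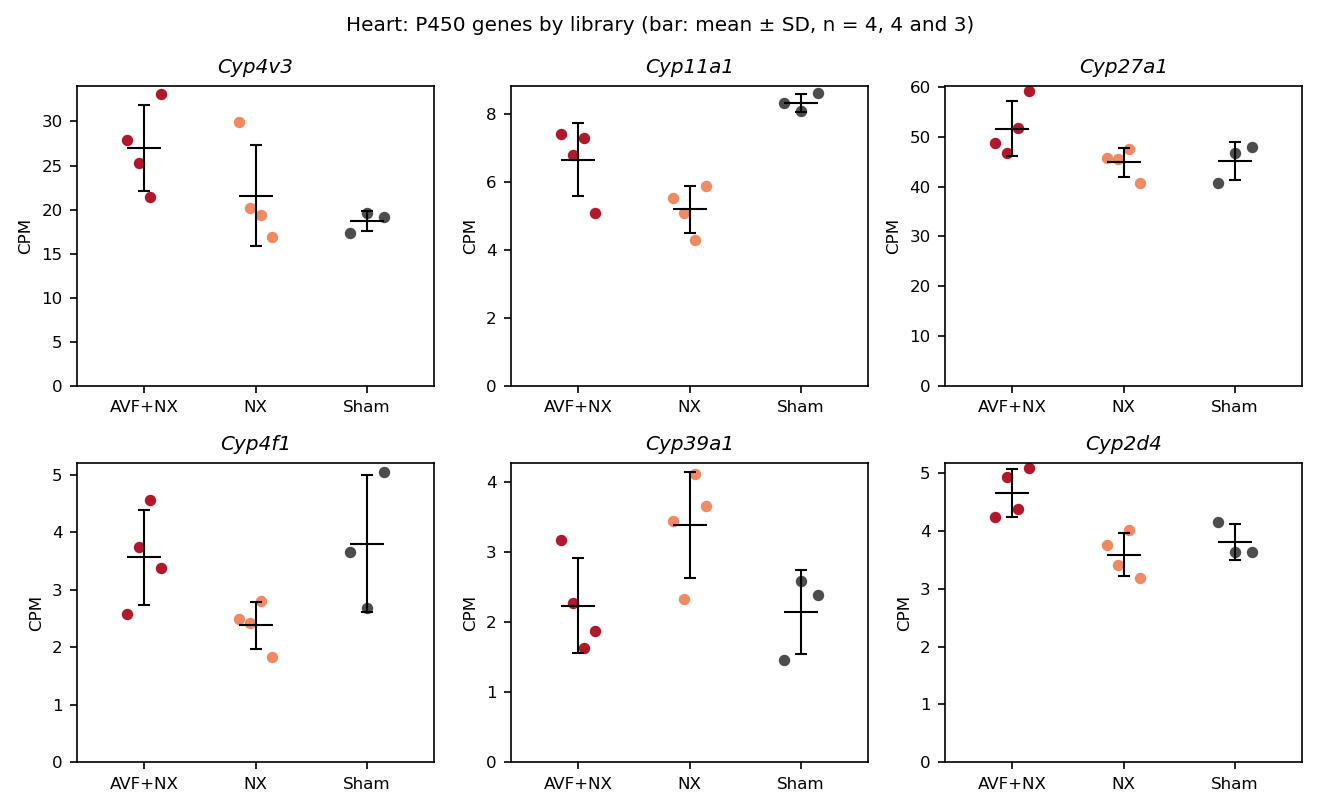
CPM of 6 P450 genes named in the heart comparisons, for each library (points) with the mean and SD (bars) in AVF+NX (n = 4), NX (n = 4) and Sham (n = 3) hearts. Axes start at 0. Cyp4v3 lies between 21.5 and 33.2 CPM in AVF+NX hearts, above the 3 Sham hearts, and Cyp11a1 is highest in the 3 Sham hearts.

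The same lists were read in AVF+NX against Sham hearts, where 4357 genes were called in all, 34.1% of those tested. The fit called 58 genes once the small RNA index entered as a term, and 2 once the total count did. Both terms moved with the operation in heart, and the list calls given here are those of the fit without them. Of 10 electron donors 3 fell, among them the mitochondrial pair that serves Cyp11a1 and Cyp27a1. Fdx1, the ferredoxin, averaged 13.1 ± 1.45 CPM in AVF+NX hearts (n = 4) and 31.9 ± 3.39 CPM in Sham hearts (n = 3, SD), with a log2 fold change of -1.28 and an adjusted p of 0.00113. Fdxr, its reductase, and Cyb5r3 had log2 fold changes of -0.88 and -0.28. Of 13 haem genes 4 fell (Urod, Cpox, Blvra, Blvrb), and of 17 tested regulators 2 rose (Ahr, Pparg) and 4 fell (Ppard, Rxra, Tef, Hlf). Ahr averaged 17.2 ± 0.845 CPM in AVF+NX hearts and 11.9 ± 1.17 CPM in Sham hearts (log2 fold change 0.53, adjusted p = 0.0113).

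The remaining heart lists in that comparison stand beside the same 34.1% of all genes called and under the same limit. Of the 4 flavin monooxygenases reported here 1 rose (Fmo1, log2 fold change 0.68, adjusted p = 0.0382). Of 17 arachidonic acid genes 2 rose (Pla2g4a, Tbxas1) and 1 fell (Ptges2). Of 11 PPAR alpha targets 1 rose (Plin2) and 4 fell (Acadm, Acaa1a, Acot2, Ehhadh), and of 13 conjugating enzymes 3 rose (Nat1, Tpmt, Nqo1) and 2 fell (Gsta4, Gstp1). None of 9 retinoid genes was called. Median log2 fold changes were -0.20 for electron donors, 0.11 for haem genes and -0.14 for regulators. Between AVF+NX and NX hearts Gsta4 and Acadm were called, both lower in AVF+NX, beside 0.336% of all genes tested. In NX against Sham hearts no gene of these lists was called, beside 0% of all genes.

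A difference between the organs was tested as an interaction over all 23 libraries, given as heart minus kidney, and is read here for the 18 members that passed the filter in both organs. The other 15 did not pass it in both organs and are not counted. For AVF+NX against Sham, 2 of 18 members were called, 1 higher and 1 lower, beside 27.9% of all genes tested (13.3% higher and 14.6% lower). Shares for the organ differences, here and below, are over 15222 genes, including ones that did not pass in both organs. Cyp1b1 measured 10.6, 8.803, 9.16 and 8.47 CPM in AVF+NX hearts, against 11.0, 4.76 and 7.18 CPM in Sham hearts, and the groups overlapped, with a log2 difference of 0.27 (SE 0.26, adjusted p = 0.448). Its heart minus kidney difference was -2.46 (SE 0.46, adjusted p = 0.000981), and this call was kept without each of the 23 libraries. The fibroblast and immune sums that moved with AVF+NX in kidney are given above, and their part in this difference was not tested. Cyp27a1 averaged 13.5 ± 1.10 CPM in AVF+NX kidneys and 16.3 ± 2.57 CPM in Sham kidneys, a log2 difference of -0.27 (SE 0.15, adjusted p = 0.223). Its log2 fold change in heart was 0.19, and neither organ's own value was called. The joint fit, which scales all 23 libraries together and so need not give the gap between the values of the separate fits, put its heart minus kidney difference at 0.55 (SE 0.18, adjusted p = 0.0291). That call was lost without heart AVF+NX library 4, heart Sham library 1, kidney Sham library 4, or kidney AVF+NX library 2 or 4 (adjusted p 0.0531 to 0.0815), which left 1 member called.

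For AVF+NX against NX and for NX against Sham, the heart minus kidney difference gave 0 of the 18 members called, beside 1.12% (0.25% higher and 0.867% lower) and 0.158% (0.0788% higher and 0.0788% lower) of all genes tested. At an unadjusted p below 0.05 there were 3 of the 18 members for AVF+NX against NX (Cyp1b1, Cyp27a1 and Cyp4f1), beside 17.4% of all genes tested, and 1 for NX against Sham, beside 16.6%. DESeq2 called 0 in both. The member for NX against Sham was Cyp1b1, at -1.35 (SE 0.47, adjusted p = 0.173).

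**Figure D5:**
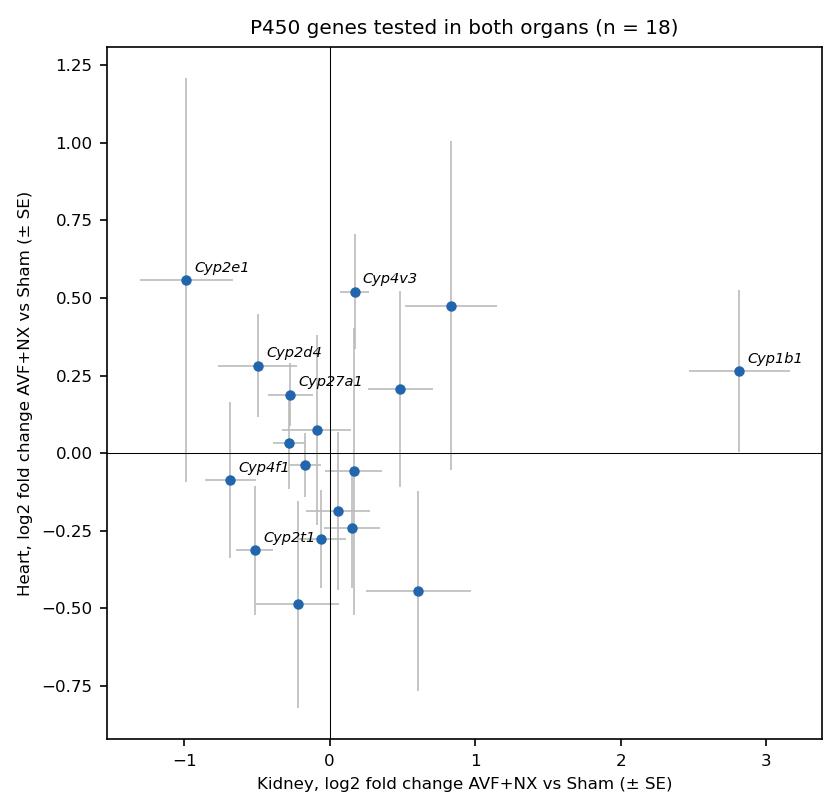
Log2 fold change of AVF+NX vs Sham in kidney (horizontal axis) and heart (vertical axis) with SE bars, for the 18 P450 genes tested in both organs. Cyp1b1 lies at 2.81 in kidney and 0.27 in heart, far to the right of the other points.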

How the data were processed

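Poly(A) RNA of hearts and kidneys was sequenced with strand-specific libraries, per the labels' protocols. The authors deposited raw counts per gene with start, end, strand and length, and, per the file headers, tables of log2 fold changes, p-values and adjusted p-values for 6 comparisons. The submitters' processing notes list Trimmomatic 0.36, STAR 2.5.2b, Subread 1.5.2 and featureCounts, with no step attached. Not given in the sources used here are the genome build, the annotation and the strand setting, so genes that overlap another gene (Cyp2t1, Cyp2d3, Cyp2e1, Cyp4f17, Cyp39a1) and near copies (Cyp4a2 and Cyp4a3, the Cyp2d and Cyp4f genes) are uncertain. The tables also hold 46 columns of normalised values per library, which were not used.

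The 3 groups of an organ shared 1 fit in R 4.3.3 with edgeR 4.0.16, using TMM scaling, filterByExpr (12794 genes in heart, 14322 in kidney), robust quasi-likelihood F tests and Benjamini-Hochberg adjustment over all genes tested. Calls were made where adjusted p was below 0.05. Dividing a log2 fold change by the root of its F value gave the SE, and intervals are 2 SE to each side. The organ difference was an interaction in 1 fit of all 23 libraries (15222 genes). Common biological variation (the coefficient) came to 0.156 for heart and 0.176 for kidney. Any 2 replicates differed by more than sampling noise, the smallest chi-square per degree of freedom being 6.49. The fit was also run on simulated counts with 200 changed genes and the same spread for all genes, and the outcome is not reported here. No group has more than 4 libraries, which limits the precision. Alternatives were DESeq2 1.42.0, its size factors, no count filter, a fit without the third group, a block for the replicate number, 2 covariates (total count and a small RNA index) and leaving out each library.

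Members named are those called in a comparison, the 4 with the smallest p where fewer were called, and the 10 with the highest level in each organ. A few others were named after their values were seen. Of the lists, up to 4 called members are named by smallest p, and others by symbol alone. Some genes of the lists are not reported here, and the counts and medians leave them out. The members, lists and tests were chosen with earlier results of these data known.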

Additional observations from a re-analysis of the deposited data

Results flagged for a closer look

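Of 77 sets of 4 values checked (1 gene in 1 group), 1 held a value far from the others, where chance gives about 1 in 20. Cyp4f6 in kidney Sham library 1 was 31.8 CPM, and the other 3 Sham kidneys were close together at 36.7, 37.3 and 37.5 CPM. The effect of AVF+NX against Sham differed between the organs for Cyp1b1, by -2.46 (heart minus kidney, log2), and for Cyp27a1, by 0.55, both by the interaction test in edgeR.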

How the results depend on the processing

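No named value changed its direction under any alternative run. Leaving out 1 library kept 550 named values on their side of the threshold, ended 54 calls and added 8, and the other alternatives kept 221, ended 19 and added 11. Counts of P450 genes called that moved by more than 1.5 times are given first. DESeq2 called 1 in NX vs Sham hearts and 3 in NX vs Sham kidneys. In AVF+NX vs Sham kidneys 5 were called with no count filter and 5 with the small RNA index as covariate. In AVF+NX vs Sham hearts 0 were called with the replicate block, the small RNA index or the total count as a term, and in AVF+NX vs NX kidneys 0 with only the 2 groups compared or with the small RNA index. Leaving out 1 library gave 4 to 12 in AVF+NX vs Sham kidneys, 0 to 4 in AVF+NX vs NX kidneys, 0 to 3 in NX vs Sham kidneys, 0 to 1 in AVF+NX vs Sham hearts, 0 to 0 in AVF+NX vs NX hearts, 0 to 1 in NX vs Sham hearts, and 1 to 3 for the organ difference in AVF+NX vs Sham, with 0 to 0 in the other 2.

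Counts over all genes were 344 (DESeq2), 4 (no count filter), 61 (replicate block) and 2 (total count) in NX vs Sham hearts, and 58 (small RNA index) and 2 (total count) in AVF+NX vs Sham hearts. In AVF+NX vs NX hearts they were 124 (no count filter), 823 (DESeq2), 0 (only the 2 groups), 73 (small RNA index) and 0 (total count). In NX vs Sham kidneys they were 835 (DESeq2), 669 (replicate block) and 44 (small RNA index), and in AVF+NX vs NX kidneys 1521 (DESeq2), 267 (only the 2 groups), 1647 (replicate block) and 14 (small RNA index). For the organ difference they were 455 (DESeq2) and 422 (replicate block) in NX vs Sham, and 112 (no count filter), 661 (DESeq2) and 353 (replicate block) in AVF+NX vs NX. Leaving out 1 library gave 0 to 538, 2724 to 4748 and 0 to 695 in heart (NX vs Sham, AVF+NX vs Sham, AVF+NX vs NX), 19 to 583, 2313 to 4428 and 324 to 1585 in kidney, and 0 to 452, 3317 to 4481 and 50 to 703 for the organ difference. The causes were not tested.

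The labels tie no number to a shared animal or day, and not every same-numbered pair correlated above 0.1 (-0.12 to 0.12 in heart, -0.07 to 0.38 in kidney), so the numbers were not taken to pair rats. In kidney 13 of 24 checks gave the highest correlation with the own number, a hint from the data of shared variation, against 2 of 20 in heart. With the replicate block 4 P450 genes were called in NX vs Sham kidneys (Cyp1b1, Cyp2e1, Cyp4a3 and Cyp4f1) and 4 for the organ difference in AVF+NX vs Sham (Cyp1b1, Cyp27a1, Cyp2d4 and Cyp4f1). The block also called Cyp2d2 in AVF+NX vs NX kidneys (adjusted p = 0.0278) and ended the Cyp4v3 call in heart (0.0676). With at most 4 libraries a group, a gene that was not called is not shown to be unchanged.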
